A study of Homo sapiens with 24 samples.

Results

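The genes described here encode the machinery with which RNA polymerase II starts and extends transcripts: 60 genes, listed by symbol, of 20037 protein-coding genes on chromosomes 1 to 22, X and Y of hg38, and each of the 60 was found by its symbol in RefSeq. They fall into 12 subunits of RNA polymerase II, 14 genes of TFIID, 15 other general transcription factors and 19 elongation factors. A gene was counted as carrying Myc when a Myc peak reached within 1 kb of either end of its RefSeq span.

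RNA polymerase II is the enzyme that makes messenger RNA. At a promoter TFIID, built from the TATA-binding protein TBP and its associated factors (TAFs), recognises the DNA, TFIIA and TFIIB hold it there, TFIIF brings the polymerase, and TFIIE and TFIIH open the DNA. TFIIH also carries the kinase CDK7, which phosphorylates the polymerase tail. Shortly after the start the polymerase pauses under NELF and DSIF until P-TEFb, the kinase CDK9 with a cyclin T, releases it, and SPT6, the PAF1 complex and the super elongation complex accompany it through the gene. Myc, which binds DNA with MAX and prefers the sequence CACGTG (the E-box), is known both to recruit P-TEFb and to occupy promoters of many genes for cell growth.

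The measurements are Myc CUT&Tag peak lists from MIA PaCa-2 cells, an established human pancreatic carcinoma line, which carried a doxycycline-inducible MED30, a subunit of the Mediator complex that links transcription factors to the polymerase. In CUT&Tag an antibody brings a transposase to its target, which cuts and tags the DNA nearby. The groups were 1 library titled 5 days of doxycycline, which switches MED30 overexpression on, and 1 library without doxycycline, both of the same inducible cells; the shared protocol speaks of 2 days, and the title was followed. The study asked how additional MED30 affects the binding of other factors, and 22 of its 24 samples, IgG controls and a day 1 Myc library among them, were not analysed here.

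Leaving out alternate haplotypes, contigs and the mitochondrial genome, the list at day 5 held 6727 peaks and the list without doxycycline 3472. Read totals are not part of the lists, but the number of fragments over each summit could be recovered from the deposited fold and p-value, with a median of 12 at day 5 and 11 without doxycycline. There is 1 library per condition, so no difference between the libraries has a replicate check and none was tested. Poisson intervals given with fragment numbers cover counting error only, and fragment numbers of the libraries are set side by side without correction for depth. IgG libraries were not used, so a peak of the Myc library may in part be background. MED30 itself had no Myc peak in either list, which does not measure how much MED30 was made.

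In the full lists most of these genes carried a Myc peak at day 5, and fewer did without doxycycline. With equal numbers of peaks from each list the order turned, to 16 members at day 5 and 21 without doxycycline, and with peaks that reached no other protein-coding gene 17 members were listed at day 5 and 10 without doxycycline. At day 5, 36 of the 60 genes (60%, exact Clopper-Pearson interval 46.5 to 72.4) had a peak, against 21 (35.0%, 23.1 to 48.4) without doxycycline. Among all protein-coding genes the shares were 27.4% at day 5 and 14.4% without doxycycline. In both lists were 18 of the 60 genes (12.9% of all genes), only in the day 5 list 18 (14.5% of all genes), only in the list without doxycycline 3 (1.57% of all genes), and in neither list 21. Of the 36 members listed at day 5, 18 were thus also listed without doxycycline (47.0% for all genes listed at day 5), and of the 21 listed without doxycycline, 18 also at day 5 (89.1% for all genes). The 3 genes listed only without doxycycline were CDK7, CCNT1 and NELFCD.

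By role, TFIID had the highest share at day 5, with 10 of 14 genes, followed by 9 of 15 other general factors, 11 of 19 elongation factors and 6 of 12 polymerase subunits. Without doxycycline the order was another one: 7 of 15 other general factors, 5 of 14 TFIID genes, 4 of 12 polymerase subunits and 5 of 19 elongation factors. Listed only at day 5 were 8 of 19 elongation factors, 5 of 14 TFIID genes, 3 of 15 other general factors and 2 of 12 polymerase subunits, beside 14.5% of all protein-coding genes. The order of the roles was not kept with peaks that reached no other protein-coding gene, which at day 5 marked 6 of 19 elongation factors, 5 of 15 other general factors, 4 of 14 TFIID genes and 2 of 12 polymerase subunits. Groups of 12 to 19 genes give wide intervals, which treat genes as independent draws, and those of all 4 roles overlapped within each library.

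**Figure D1:**
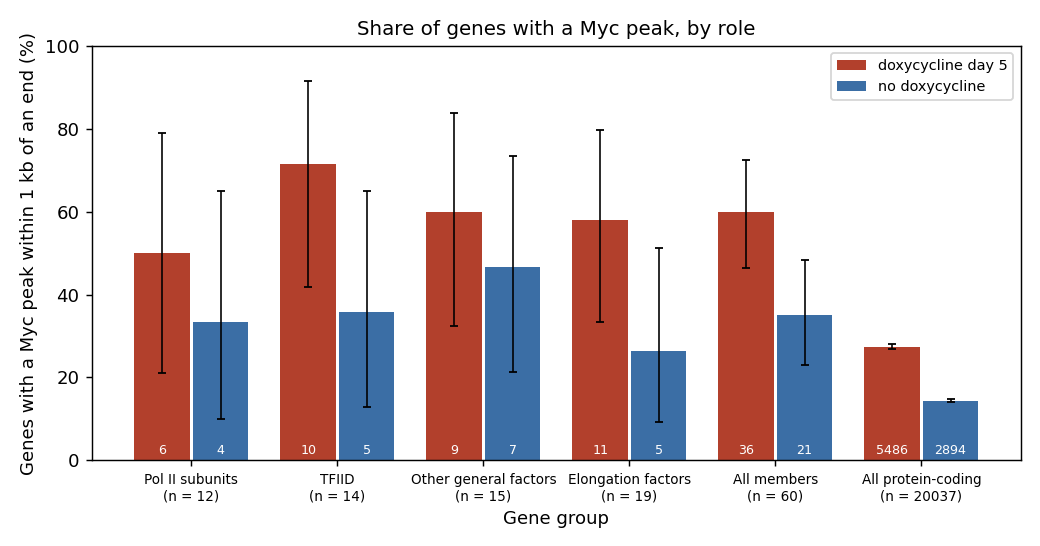
Share of genes listed with Myc at a gene end, within 1 kb (y axis, percent) for each role, for all 60 members and for all protein-coding genes, at day 5 (red) and without doxycycline (blue). White numbers are gene counts and error bars exact 95% binomial intervals, which treat genes as independent draws; every role lies above all protein-coding genes (27.4% at day 5 and 14.4% without doxycycline), with intervals that overlap between roles. The interval includes the share of all genes for the polymerase in both libraries, and for TFIID and the elongation factors without doxycycline.

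Promoter sequences, from 250 bases before to 50 after the start of the gene, were taken from RefSeq (GRCh38.p14) for 51 of the 60 genes. The sequences printed are those of the members that hold CACGTG in this window at the start of the gene span, written in capitals, because every one of these genes had a Myc peak in at least 1 list. ELL and POLR2A are added as genes with a Myc peak in both lists and no CACGTG in this window; ELL has the highest-ranked day 5 peak among the members of that kind.
GTF2A1 (hg38 chr14:81221341-81221640, minus strand): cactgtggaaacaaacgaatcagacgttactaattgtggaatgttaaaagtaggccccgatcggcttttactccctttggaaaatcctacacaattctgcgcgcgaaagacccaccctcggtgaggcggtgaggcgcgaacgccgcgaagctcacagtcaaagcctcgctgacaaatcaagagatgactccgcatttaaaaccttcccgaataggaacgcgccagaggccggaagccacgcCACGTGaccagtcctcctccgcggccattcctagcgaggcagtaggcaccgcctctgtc
GTF2H1 (hg38 chr11:18322317-18322616, plus strand): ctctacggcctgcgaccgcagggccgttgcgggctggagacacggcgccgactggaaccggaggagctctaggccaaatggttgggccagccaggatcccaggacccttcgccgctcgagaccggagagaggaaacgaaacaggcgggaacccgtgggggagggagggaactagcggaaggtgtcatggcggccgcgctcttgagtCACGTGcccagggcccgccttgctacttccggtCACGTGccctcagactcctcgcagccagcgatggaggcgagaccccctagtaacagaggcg
GTF2B (hg38 chr1:88891518-88891817, minus strand): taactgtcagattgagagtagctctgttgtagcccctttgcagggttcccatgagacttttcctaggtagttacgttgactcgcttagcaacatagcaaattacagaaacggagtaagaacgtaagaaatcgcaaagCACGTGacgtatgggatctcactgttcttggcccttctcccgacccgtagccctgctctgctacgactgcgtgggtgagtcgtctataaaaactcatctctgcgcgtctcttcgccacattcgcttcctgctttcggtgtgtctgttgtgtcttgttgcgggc
CDK7 (hg38 chr5:69234545-69234844, plus strand): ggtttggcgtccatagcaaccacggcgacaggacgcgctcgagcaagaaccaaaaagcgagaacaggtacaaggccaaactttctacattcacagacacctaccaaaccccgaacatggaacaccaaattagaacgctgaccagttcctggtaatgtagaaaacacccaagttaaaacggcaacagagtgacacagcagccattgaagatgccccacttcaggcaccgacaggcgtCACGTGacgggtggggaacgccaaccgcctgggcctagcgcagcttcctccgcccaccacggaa
CCNT1 (hg38 chr12:48716658-48716957, minus strand): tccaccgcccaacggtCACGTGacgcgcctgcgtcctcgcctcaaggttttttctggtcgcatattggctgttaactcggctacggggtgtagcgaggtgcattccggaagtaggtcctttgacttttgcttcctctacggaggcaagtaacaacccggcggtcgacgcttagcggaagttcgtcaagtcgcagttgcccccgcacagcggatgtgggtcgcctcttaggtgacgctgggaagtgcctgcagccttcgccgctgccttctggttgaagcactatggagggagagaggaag
AFF4 (hg38 chr5:132963585-132963884, minus strand): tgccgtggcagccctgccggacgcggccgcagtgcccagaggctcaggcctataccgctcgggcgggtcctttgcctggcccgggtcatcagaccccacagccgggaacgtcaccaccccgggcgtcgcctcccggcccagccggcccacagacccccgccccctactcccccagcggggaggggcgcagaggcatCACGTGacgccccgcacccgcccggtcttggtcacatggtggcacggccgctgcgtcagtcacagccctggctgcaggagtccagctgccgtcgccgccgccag
ELL (hg38 chr19:18522021-18522320, minus strand): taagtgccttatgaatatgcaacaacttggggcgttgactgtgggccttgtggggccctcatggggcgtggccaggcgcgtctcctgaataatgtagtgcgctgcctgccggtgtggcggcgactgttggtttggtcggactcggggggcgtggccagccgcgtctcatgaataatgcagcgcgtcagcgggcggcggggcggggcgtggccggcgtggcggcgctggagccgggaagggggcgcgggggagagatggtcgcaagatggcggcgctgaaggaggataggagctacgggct
POLR2A (hg38 chr17:7484116-7484415, plus strand): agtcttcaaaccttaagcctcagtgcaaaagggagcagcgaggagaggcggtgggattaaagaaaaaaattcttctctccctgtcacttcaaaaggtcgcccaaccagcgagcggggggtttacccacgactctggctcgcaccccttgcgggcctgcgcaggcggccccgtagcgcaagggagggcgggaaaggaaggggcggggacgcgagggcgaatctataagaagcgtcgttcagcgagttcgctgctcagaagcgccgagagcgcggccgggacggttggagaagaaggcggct
GTF2H1 holds CACGTG at 2 places, beginning at positions -44 and -11 relative to its start. In GTF2A1 it begins at -9, in CDK7 at -14, in AFF4 at -54, in GTF2B at -113 and in CCNT1 at -234. The only other member with CACGTG was TAF12, at -121 from a start that lies 5202 bp inside the gene span, away from its Myc peak.

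Among the polymerase subunits the strongest Myc peak lay at POLR2I, which encodes the small subunit RPB9, and the catalytic subunit gene POLR2A was listed in both libraries. The peak at POLR2I (chromosome 19, 36114835 to 36115701 at day 5 and 36114879 to 36115476 without doxycycline) had 60 fragments over its summit at day 5 (interval 45.8 to 77.2) and 75 without doxycycline (59 to 94). It ranked 40 of 6727 peaks at day 5 and 8 of 3472 without doxycycline by the authors' q-value. The same peak also reached an end of TBCB, a tubulin cofactor, to which its summit lay nearer.

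POLR2A (chromosome 17, gene span 7484366 to 7514616) had a peak at 7483645 to 7484873 at day 5 and at 7483950 to 7484719 without doxycycline. Its summit lay 384 bp upstream of the start at day 5 and 356 bp upstream without doxycycline, and the peak also reached ends of ZBTB4 and SLC35G6. The summit held 19 fragments at day 5 (11.4 to 29.7) and 18 without doxycycline (10.7 to 28.4), nearly the same number in each library. POLR2H, the gene of a subunit common to all nuclear RNA polymerases, had 36 fragments at day 5 (25.2 to 49.8) and 12 without doxycycline (6.2 to 21). Of the 18 members in both lists POLR2H was the only one whose intervals did not overlap. How many of all genes in both lists differ in this way was not counted, so POLR2H is not shown to be unusual. For the 2580 protein-coding genes in both lists the fragment ratio, day 5 over no doxycycline, had a median of 1.43 and reached 6.2. The POLR2H peak, shared with CLCN2, had its summit 1355 bp inside the gene at day 5 and 863 bp inside it without doxycycline. POLR2B, the second-largest subunit, had 8 fragments at day 5 and 11 without doxycycline, in a peak about 1 kb upstream that lay nearer to NOA1. POLR2D and POLR2G, which encode the RPB4 and RPB7 pair that sits on the enzyme as a stalk, were listed only at day 5, with 7 and 6 fragments. The remaining subunit genes, POLR2C, POLR2E, POLR2F, POLR2J, POLR2K and POLR2L, had no peak in either list.

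TFIID genes had moderate peaks at day 5 and, without correction for depth, weaker ones without doxycycline. Of all protein-coding genes in both lists, 81.5% likewise had more fragments at day 5. In both lists were TAF5, TAF6, TAF9, TAF10 and TAF12. TAF9 and TAF12 had the most fragments, each with 20 at day 5 (12.2 to 30.9), while without doxycycline TAF9 had 7 (2.8 to 14.4) and TAF12 had 11 (5.5 to 19.7). The TAF12 summits of the libraries lay 1 bp apart, 109 bp upstream of the start of the gene span at day 5 and 110 bp without doxycycline. TAF9 shares its start region with AK6 and RAD17, and its peak reached both. TAF6 had 14 fragments at day 5 and 7 without doxycycline, TAF10 had 12 at day 5 and 8 without doxycycline, and TAF5 had 11 at day 5 and 7 without doxycycline. The TAF5 peaks of the libraries did not overlap, with summits 456 bp inside the gene at day 5 and 787 bp inside it without doxycycline.

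Listed only at day 5 were TBP itself, with 8 fragments (3.5 to 15.8) and a summit 224 bp upstream of the start, and TAF1, the largest subunit, with 10 (4.8 to 18.4). TAF8 had 15, TAF7 6 and TAF2 5 fragments at day 5. The TBP peak also reached PSMB1, a proteasome gene that starts beside it, the TAF8 peak CCND3 and the TAF2 peak DSCC1. TAF3, which reads the promoter mark H3K4me3, TAF4, TAF11 and TAF13 had no peak in either list. Across the TFIID genes with a peak the median was 11.5 fragments at day 5 (5 to 20, 10 genes) and 7 without doxycycline (7 to 11, 5 genes).

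Among the other general factors the largest subunit gene of TFIIA and the p62 gene of TFIIH stood out in both libraries. GTF2A1 (chromosome 14, peak 81220895 to 81221491 at day 5 and 81221016 to 81221532 without doxycycline) had 39 fragments at day 5 (27.7 to 53.3) and 29 without doxycycline (19.4 to 41.6), ranking 138 of its list at day 5 and 107 without doxycycline. Its peak reached no other protein-coding gene. GTF2H1 (chromosome 11, peak 18322157 to 18322570 at day 5 and 18322175 to 18322752 without doxycycline) had 28 (18.6 to 40.5) at day 5 and 19 (11.4 to 29.7) without doxycycline, in a region it shares with HPS5. Both peaks covered the CACGTG sequences printed above, with the GTF2A1 summit 240 bp from the motif at day 5 and 156 bp without doxycycline, and the GTF2H1 summit 195 bp from the nearer motif at day 5 and 207 bp without doxycycline.

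GTF2B, the gene of TFIIB, had 8 fragments in each library, but its peak lay upstream of the printed window, with summits 1411 bp before the start at day 5 and 1172 bp without doxycycline. Of TFIIE, GTF2E1 had 12 fragments at day 5 and 10 without doxycycline, while GTF2E2 had no peak. In TFIIH, GTF2H5 had 8 at day 5 and 7 without doxycycline, GTF2H3 had 11 at day 5 only, and GTF2H2 and GTF2H4 had none. GTF2A2, the small TFIIA subunit, with 5 fragments, and GTF2F1, the large TFIIF subunit, with 10, were listed only at day 5, and GTF2F2 in neither library.

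In the kinase module of TFIIH the catalytic subunit was listed only without doxycycline. CDK7, that subunit, had 5 fragments without doxycycline (1.6 to 11.7), with a summit 110 bp inside the gene, and at day 5 the nearest peak was 16.6 kb away. CCNH, its cyclin, had 8 at day 5 and 5 without doxycycline. MNAT1, which assembles the pair, had no peak in either list. With 5 fragments and an authors' −log10 q-value of 2.63, the CDK7 peak stood above the smallest listed value of 1.33, near which lay the day 5 peak of LEO1 (1.34) and the NELFCD peak without doxycycline (1.39).

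Of the 5 genes of P-TEFb and its 7SK inhibitor, 4 had a Myc peak at day 5 (interval 28.4 to 99.5%) and 3 without doxycycline (14.7 to 94.7%). Each was in at least 1 list, as were 39 of the 60 members and 28.9% of all protein-coding genes. CDK9, the kinase that releases paused polymerase, was listed only at day 5, with 14 fragments (7.7 to 23.5) and a summit 597 bp inside the gene. Its cyclin partners differed: CCNT2 was listed only at day 5, with 14 fragments, and CCNT1 only without doxycycline, with 7 (2.8 to 14.4). The CCNT1 summit lay 41 bp from the CACGTG printed above. HEXIM1, which holds P-TEFb inactive on 7SK RNA, had 11 fragments at day 5 and 10 without doxycycline, in neighbouring peaks that did not overlap and whose summits lay 910 bp apart. LARP7, the protein that stabilises 7SK RNA, had 6 at day 5 and 8 without doxycycline.

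Of the super elongation complex, ELL had the strongest peak among all elongation factors, with 34 fragments at day 5 (23.5 to 47.5) and 29 without doxycycline (19.4 to 41.6). It lay at 18522104 to 18522876 of chromosome 19 at day 5 and 18522201 to 18522654 without doxycycline, and reached no other protein-coding gene. AFF4, the scaffold of the complex, was listed only at day 5, with 18 fragments (10.7 to 28.4) and a summit 149 bp from its CACGTG. ELL2 was also listed only at day 5, with 7. SUPT6H, the gene of SPT6, had 9 fragments and the pausing factor NELFA 13, each only at day 5, whereas NELFCD had 3 (0.6 to 8.8), the fewest of any member, only without doxycycline. The SUPT6H peak also reached SDF2, and the NELFA peak LOC124900839. In the PAF1 complex, which travels with the polymerase, CDC73 with 10 fragments and LEO1 with 4 were listed only at day 5. Both DSIF genes, SUPT4H1 and SUPT5H, had no peak in either list, nor did NELFB, NELFE, PAF1 and CTR9.

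**Figure D2:**
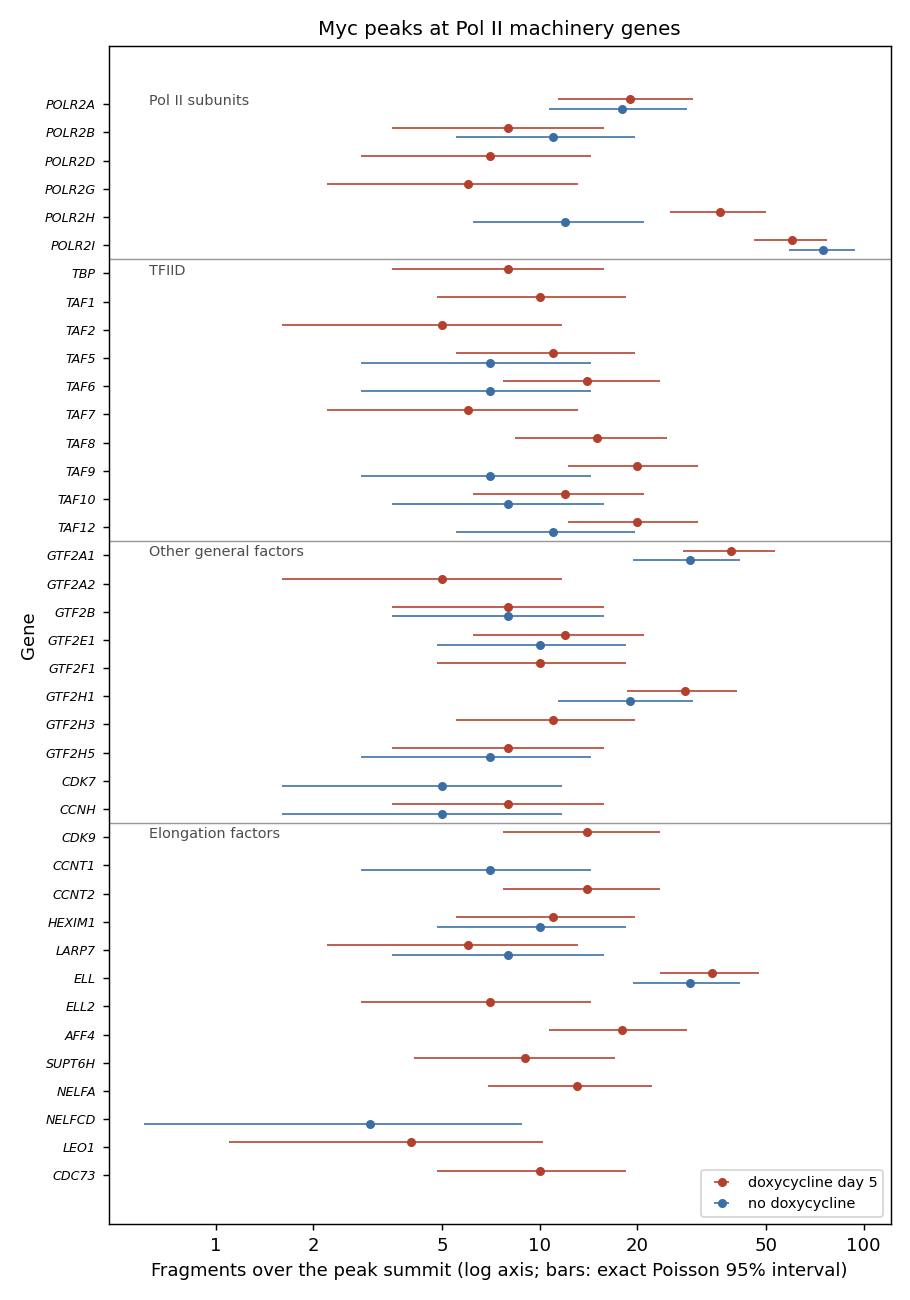
Fragments over the summit of the highest-ranked Myc peak (x axis, log scale) for the 39 members with a peak in either list, grouped by role, at day 5 (red, upper point) and without doxycycline (blue, lower point). Bars are exact Poisson 95% intervals and a missing point means no listed peak. POLR2I, GTF2A1, ELL, POLR2H and GTF2H1 lie furthest right. Only at POLR2H are the intervals apart, which was not counted for all genes.

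The 21 genes without a peak differed in how far the nearest one lay. The median distance from a gene end to the nearest peak was 28.7 kb at day 5 and 109 kb without doxycycline, and 4 genes at day 5 and 2 without doxycycline had a peak within 5 kb. The day 5 list is the longer one. These distances were not computed for all genes without a peak, so the members' values have no background to stand beside. POLR2L, with a peak 1.52 kb away at day 5, NELFB (3.4 kb at day 5 and 3.43 kb without doxycycline) and SUPT5H (3.8 kb in both) were closest. TAF3 was among the most distant, with 349 kb at day 5 and 1620 kb without doxycycline. GTF2H2 and POLR2J have near-identical copies elsewhere in the genome, where short reads cannot always be placed. Of such copies, POLR2J2 had 8 fragments at day 5 and 4 without doxycycline, POLR2J3 had 9 at day 5 only, and GTF2H2C had no peak. GTF2H4 and NELFE lie in the major histocompatibility region. That region, from GABBR1 to KIFC1 (chromosome 6, 29602238 to 33409896), held 12 peaks at day 5 and 2 without doxycycline on the primary chromosome, whereas its alternate haplotypes held 87 at day 5 and 30 without doxycycline, which were not assigned to genes here; their part in the absence of a peak at these genes was not tested. A gene with no listed peak is one where no peak passed the authors' threshold, not one shown to lack Myc.

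From the upper 20% of each list to its middle the members' peaks ranked lower than those of all genes with a peak. The upper 10% of the day 5 list held 16.7% of the members with a peak and 12.8% of all genes with a peak. Without doxycycline these shares were 14.3% and 12.1%, and both differences rest on few genes. In the upper 20% the members already stood lower, at 19.4% against 24.3% at day 5 and 19.0% against 24.5% without doxycycline. In the upper 50% of the day 5 list by q-value were the peaks of 15 of the 36 members with a peak (41.7%, which is 25% of the 60; of all protein-coding genes 15.3% were reached by this upper part), against 55.9% of all protein-coding genes with a peak, and without doxycycline 7 of 21 (33.3%, which is 11.7% of the 60, beside 8.02% of all protein-coding genes), against 55.5% of all. The median at day 5 was 11 fragments for members and 12 for all genes with a peak. Without doxycycline it was 8 for members and 11 for all genes with a peak. A few strong sites (POLR2I, GTF2A1, GTF2H1, ELL and, at day 5, POLR2H) stood beside many with fewer than 10 fragments, which were 14 of 36 at day 5 (38.9%, all genes with a peak 31.3%) and 11 of 21 without doxycycline (52.4%, all genes 38.9%). Peaks were similarly wide as elsewhere, with medians at day 5 of 601.5 bp for members and 608 bp for all genes with a peak, and without doxycycline of 515 bp for members and 525 bp for all.

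**Figure D3:**
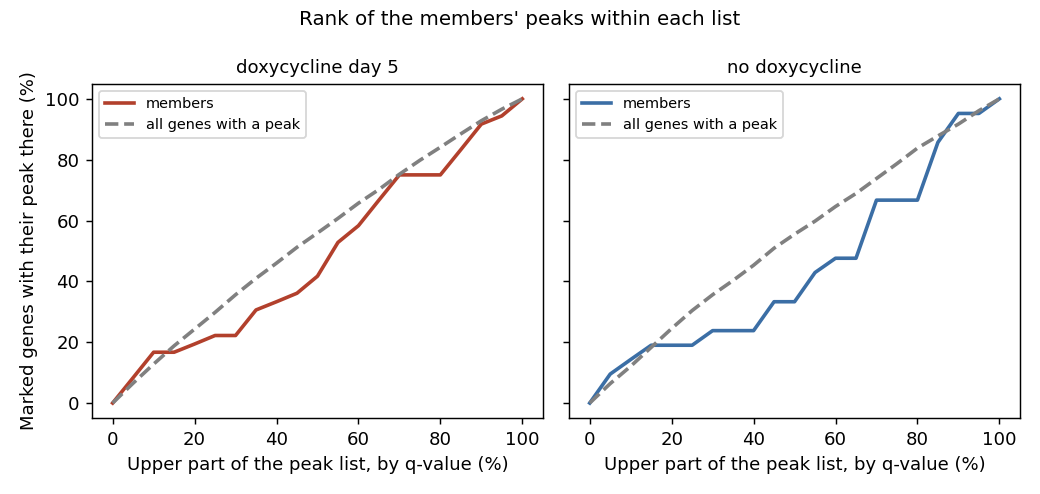
Percent of genes with a peak whose highest-ranked peak falls in the upper part of the list (y axis) against that upper part, in percent of the list ordered by the authors' q-value (x axis), for members (solid) and all protein-coding genes with a peak (grey, dashed), at day 5 (left) and without doxycycline (right). At 50% of the list the members stand at 41.7% at day 5 and 33.3% without doxycycline, and all genes at 55.9% at day 5 and 55.5% without doxycycline. At 10% of the list the members stand higher, at 16.7% against 12.8% at day 5 and 14.3% against 12.1% without doxycycline, which rests on few genes. At 20% they stand lower, at 19.4% against 24.3% at day 5 and 19.0% against 24.5% without doxycycline.

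Because the lists differ in length, the members were also counted with equal numbers of peaks. Among the 3472 highest-ranked day 5 peaks, 16 members (26.7%) were reached, against 21 (35.0%) in the list without doxycycline; for all protein-coding genes these shares were 15.7% at day 5 and 14.4% without doxycycline. With lists of equal length fewer members were thus listed at day 5 than without doxycycline, the opposite of the full lists. Of the 15 members in the upper 50% of the day 5 list, 9 were also listed without doxycycline (60%, against 65.2% for all genes), and of the 21 in the lower 50% also 9 (42.9%, against 23.9%). Of the 18 members listed only at day 5, 6 had their peak in the upper 50% of that list and 12 in the lower 50%. The 2906 protein-coding genes listed only at day 5 divided similarly, with 1067 in the upper 50% and 1839 in the lower 50%.

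At the 18 members in both lists the ratio of summit fragments, day 5 over no doxycycline, had a median of 1.27, against 1.43 for the 2580 protein-coding genes in both lists. The count was higher at day 5 for 14 of the 18, equal for GTF2B and lower for POLR2B, POLR2I and LARP7; the share higher at day 5 was 77.8% for members and 81.5% for all genes in both lists. The ratios ran from 0.73 at POLR2B to 3 at POLR2H, and the next highest were 2.86 at TAF9 and 2 at TAF6. In 16 of the 18 the peaks of both libraries overlapped by at least 1 bp (98.4% for all genes in both lists), the exceptions being TAF5 and HEXIM1.

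Other ways of linking peaks to genes left the members above all protein-coding genes in each library. With a window of 500 bp 33 members (55.0%, all genes 25.7%) were listed at day 5 and 16 (26.7%, all genes 13.4%) without doxycycline. A window of 2500 bp gave 37 (61.7%, all genes 29.6%) at day 5 and 21 (35.0%, all genes 15.9%) without doxycycline. With the start of the gene span only, over the 51 members of known strand, it was 30 (58.8%, all genes 28.3%) at day 5 and 20 (39.2%, all genes 15.0%) without doxycycline. The summit in place of the whole peak gave 34 (56.7%, all genes 26.3%) at day 5 and 19 (31.7%, all genes 13.9%) without doxycycline. Peaks with a −log10 q-value of at least 3 reached 31 members (51.7%, all genes 24.5%) at day 5 and 17 (28.3%, all genes 12.5%) without doxycycline. Including contigs left the members' counts at 36 at day 5 and 21 without doxycycline, with 27.4% of all genes at day 5 and 14.5% without doxycycline. Peaks that reached no other protein-coding gene, a rule added after seeing the data, marked 17 members (28.3%, all genes 16.7%) at day 5 and 10 (16.7%, all genes 8.38%) without doxycycline.

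**Figure D4:**
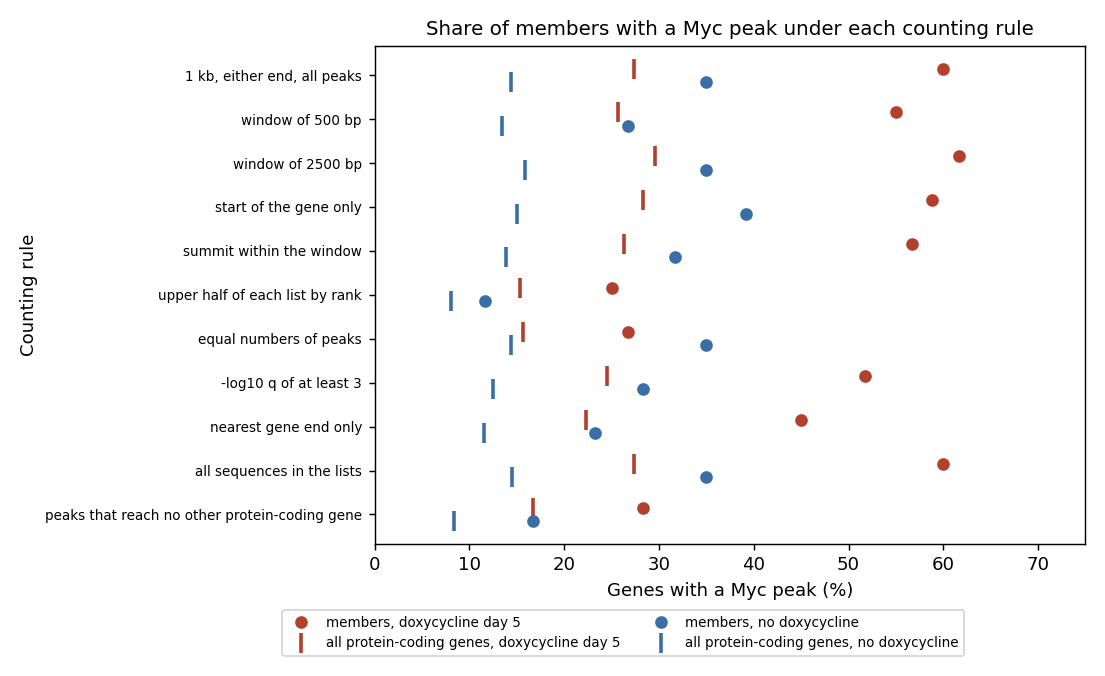
Share of genes with a Myc peak (x axis, percent) under each counting rule (y axis), for the members (circles) and all protein-coding genes (vertical bars), at day 5 (red) and without doxycycline (blue). The members lie above all protein-coding genes of the same library under every rule shown, and only with equal numbers of peaks does day 5 (26.7%) lie below no doxycycline (35.0%).

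Most summits lay close to gene starts, taken here as the start of the gene span where the strand was known. For TAF6 and TAF12 the start used for the promoter window lay 7313 bp and 5202 bp inside the span. At day 5, 24 of 30 members (80.0%) had their summit within 500 bp of the start, as did 79.9% of all genes with a peak; without doxycycline they were 14 of 20 members (70.0%) and 79.9% of all. The median distance was 235 bp at day 5 and 265 bp without doxycycline. Summits were upstream of the start for 19 of 30 members at day 5 (63.3%, all genes with a peak 46.4%) and for 9 of 20 without doxycycline (45.0%, all genes 48.4%). Many peaks were shared with another gene: the peaks of 19 of 36 members at day 5 (52.8%, against 40.3% of all genes with a peak) and of 11 of 21 without doxycycline (52.4%, against 42.6%) also reached an end of a different protein-coding gene, in either orientation. For these, such as POLR2I with TBCB, GTF2H1 with HPS5 or TAF10 with the lysosomal peptidase gene TPP1, the peak lists do not tell the genes apart. When a peak counted only for the gene end nearest to its summit, 27 members (45.0%) at day 5 and 14 (23.3%) without doxycycline kept a peak, against 22.3% of all protein-coding genes at day 5 and 11.5% without doxycycline, and among those without one were POLR2A, POLR2B, POLR2I, GTF2E1 and GTF2H1 in both libraries. GTF2H3, whose peak also reached EIF2B1, NELFA, SUPT6H and TAF9 lost theirs at day 5, and TAF6 and TAF10 without doxycycline.

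**Figure D5:**
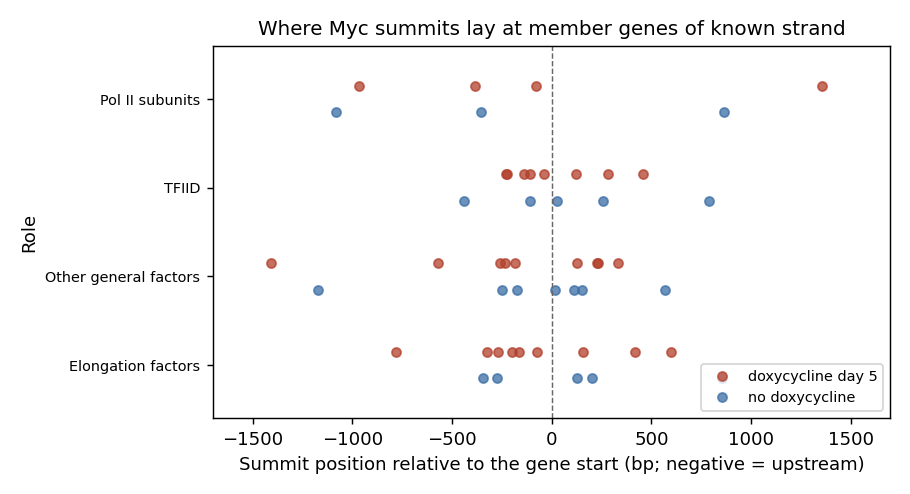
Position of the Myc summit relative to the start of the gene span (x axis, bp, negative is upstream) for members whose strand is given, by role (rows), at day 5 (red) and without doxycycline (blue). Each point is 1 gene; 24 of 30 points at day 5 and 14 of 20 without doxycycline lie within 500 bp of the start.

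CACGTG, which reads the same on both strands, was present in 7 of the 51 member promoters (13.7%), against 8.82% of 15842 promoters of protein-coding genes. All 7 genes, GTF2A1, GTF2H1, GTF2B, CDK7, CCNT1, AFF4 and TAF12, had a Myc peak in at least 1 list, as did 26 of the 44 members without it (59.1%); among all genes the shares were 46.1% with the motif and 29.5% without it. By library, all genes with the motif were listed at 44.1% at day 5 and 27.3% without doxycycline, and those without the motif at 27.9% at day 5 and 14.6% without doxycycline. At GTF2A1, GTF2H1, CDK7, CCNT1 and AFF4 a peak covered part of the window, and at GTF2B and TAF12 it did not. Of these 7, the day 5 list held 5 and the list without doxycycline 6. With CACGCG counted too, 13 member promoters held either sequence, of which 7 (53.8%) had a peak at day 5, 9 (69.2%) without doxycycline and 10 (76.9%) in at least 1 list; among all genes 42.6% had one at day 5, 24.7% without doxycycline and 44.9% in at least 1 list. A match is a description of the letters in this window, and of the 25 members whose peak overlapped the window 20 had no CACGTG in it. That overlap was not counted for all genes. Among promoters of genes with a peak in either list, overlapping or not, 21.2% of the members' and 13.1% of all held CACGTG.

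Member promoters were rich in CpG, with a median of 28 CpG in 300 bases against 22 for all protein-coding genes, and all 51 had at least 10. Among all genes with at least 10 CpG in the window, 38.1% had a peak at day 5, 20.4% without doxycycline and 40.2% in either list, and of the 51 members with a promoter 58.8% had one at day 5 and 39.2% without doxycycline. The median was 28 CpG for members with a peak and 29 for those without. The limit of 10 was chosen after the members' values were seen.

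Around the same process stand 63 further genes, of which 29 (46.0%) had a peak at day 5 and 17 (27%) without doxycycline, beside 27.4% of all protein-coding genes at day 5 and 14.4% without doxycycline. Relatives and further subunits of TFIID and TFIIH had 6 of 14 (42.9%) at day 5 and 1 of 14 (7.14%, below the share of all genes) without doxycycline. Highest by rank were TAF15 with 12 fragments, ERCC2, a TFIIH helicase, with 11, and BTAF1, which removes TBP from DNA, with 9, each at day 5 only. TAF4B, ranked lower, also had 12 at day 5 only, and DR1 was in both lists. Assembly factors, tail-modifying proteins and subunit variants of the polymerase had 9 of 18 at day 5 and 4 of 18 without doxycycline. GPN3, which takes part in importing the polymerase into the nucleus, had 53 fragments at day 5 and 29 without doxycycline, and RPRD2 had 22 at day 5 and 18 without doxycycline. Elongation and pausing factors had 10 of 25 at day 5 and 8 of 25 without doxycycline. CDK13, a kinase of the polymerase tail, had 40 fragments at day 5 and 11 without doxycycline, and MEPCE, which caps 7SK RNA, had 47 at day 5 and 43 without doxycycline. SUPT16H, a subunit of the histone chaperone FACT, had 26 at day 5 and 9 without doxycycline. Termination factors had 4 of 6 in each library, led by XRN2, the exonuclease that follows the polymerase past the gene end, with 35 fragments at day 5 and 11 without doxycycline.

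As a check on the cells, none of the 7 acinar, 5 endocrine, 6 epithelial and 4 leukocyte marker genes had a Myc peak in either list. Of 4 mesenchymal markers VIM was listed in both and ZEB1 at day 5. Myc peaks do not measure expression, so these lists do not settle the cell type.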

How the data were processed

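Myc CUT&Tag peak lists of 2 libraries were used, 1 per condition, grouped by title. The submitters' processing notes name build hg38 and the tools MACS2, Bowtie2, deepTools and Trim Galore; versions, settings, filters and any IgG control in the calls are not given in these sources. The authors deposited the peaks per library, with no sign of pooled samples. Each deposited score is 10 times the −log10 q-value, truncated. The deposited fold is a ratio of summit enrichment to a local background estimated by the caller for that library. The authors also deposited −log10 p-values and q-values of the summit and its offset in bp. They were used here for ranks and thresholds inside 1 list and for fragment numbers.

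Fragments over a summit were recovered as the whole number n for which the fold equals (n + 1)/(background + 1) and p is the Poisson probability of more than n. They fitted within 0.001 in −log10 p for 99.97% of peaks at day 5 and 99.86% without doxycycline. A gene's value is that of its highest-ranked peak by q-value. Gene spans and promoters came from RefSeq GRCh38.p14, and strand was known where a promoter was given; 9 members had none. For the promoter window the start nearest to the start of the gene span was used. Summit positions and the count at gene starts were taken from the start of the span itself. With 1 library per condition no test was run. Fragments have exact Poisson intervals at 95%, which cover counting error only. Shares have exact Clopper-Pearson intervals at 95%, which treat genes as independent draws although genes can share a peak. Neither kind measures the spread between libraries.

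The members, roles and lists were chosen with earlier results of these data known. All 60 members are named; of the further pathway genes, up to 3 per list with the highest-ranked day 5 peak. Alternatives were windows of 500 and 2500 bp, the gene start only, the summit in place of the peak, the upper 50% of each list, equal numbers of peaks, a −log10 q of at least 3, the nearest gene end only and all sequences. Counting only peaks that reach no other protein-coding gene was added after seeing the data. Scripts ran in Python 3.11.15 with SciPy 1.17.1 and pandas 2.3.3, and fragment recovery and gene marking were tested on simulated data.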

Additional observations from a re-analysis of the deposited data

Results flagged for a closer look

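Signal was present on sequences that the comparisons leave out. The alternate haplotypes of the major histocompatibility region of chromosome 6 carried 87 peaks at day 5 and 30 without doxycycline. No control library was used to set beside these numbers. GTF2H4 and NELFE lie in that region and had no peak on the primary chromosome in either list; the haplotype peaks were not assigned to genes, and whether any belongs to these genes was not tested.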

How the results depend on the processing

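No paired analysis was possible because each condition had 1 library, and leaving out a replicate was likewise not run. Of 157 alternative values, 114 stayed close to the reported one (for a count, within 1.5 times) and 43 did not. Some of the 114 could not change. These are the members' counts with all sequences and, with equal numbers of peaks, the counts for the list without doxycycline, which is used whole. In the upper 50% of each list, members with a peak were 15 at day 5 and 7 without doxycycline, 5 in both and 10 only at day 5. By role these were 2 polymerase subunits at day 5 and 2 without doxycycline, 5 TFIID genes at day 5 and 0 without doxycycline, 3 other general factors in each library, and 5 elongation factors at day 5 and 2 without doxycycline; all protein-coding genes were 3069 at day 5 and 1607 without doxycycline. These numbers fall by construction. With equal numbers of peaks, members were 16 at day 5, 9 in both lists, 7 only at day 5 and 12 only without doxycycline, with 2 polymerase subunits, 5 TFIID genes, 3 other general factors and 6 elongation factors at day 5, among 3146 protein-coding genes. For this rule and the others of this section, the split between the lists was not counted for all protein-coding genes. The members' split thus has no share of all genes to stand beside. With peaks that reach no other protein-coding gene, a rule added after seeing the data, members were 17 at day 5 and 10 without doxycycline, 7 in both and 10 only at day 5. At day 5 these were 2 polymerase subunits, 4 TFIID genes, 5 other general factors and 6 elongation factors, and without doxycycline 0 polymerase subunits, 2 TFIID genes and 4 other general factors, among 3342 protein-coding genes at day 5 and 1680 without doxycycline. With the nearest gene end only, 10 members were in both lists, polymerase subunits were 3 at day 5 and 1 without doxycycline, and TFIID genes were 3 without doxycycline. A window of 500 bp left 2 polymerase subunits, and a −log10 q of at least 3 left 3 elongation factors, both without doxycycline. Counting CACGCG beside CACGTG gave 13 member promoters in place of 7, of which 10 had a peak in at least 1 list.

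Read totals are unknown, so depth was not measured. Fewer than 10 fragments lay over the summit for 14 of 36 members' peaks at day 5 (38.9%, all genes 31.3%) and 11 of 21 without doxycycline (52.4%, all genes 38.9%).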
